A study of Mus musculus with 2 samples.

Results

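CTCF binding was examined around 10 genes of neurite growth and the neuronal cytoskeleton in the hindbrain of newborn mice: Gap43, Stmn1, Stmn2, Stmn3, Stmn4, Tubb3, Map2, Mapt, Dcx and Nefl. These are 10 of 21938 protein-coding genes annotated in GENCODE vM21. They form a list of names, grouped by what their products do in neurons, and the rule uses no measured value, but the list was drawn up with earlier results of these data known. A peak was assigned to a gene when its summit lay inside the gene or within 50 kb of either end. This gave 67 of the 62686 peaks in the optimal set, the larger of the lists that the authors filtered by IDR, the irreproducible discovery rate, which keeps peaks whose order by strength holds up across lists. All 10 windows held at least 2 peaks, as do those of most coding genes (of the 21938, 2707 had no peak and 1261 had 1). No peak fell into the windows of more than 1 of the 10 genes.

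The data are chromatin immunoprecipitation with an antibody against CTCF, followed by sequencing (ChIP-seq). All material was hindbrain of B6NCrl mice at postnatal day 0, with no genotype or treatment named in the labels, and it forms 1 group. Hindbrains of several dissections were pulverised and pooled. The 2 libraries are numbered as biological replicates but point to the same tissue sample record, so differences between their lists may only be technical. Hindbrain tissue mixes neurons, glia and other cells, and a peak list does not say in which of them CTCF was bound. CTCF peaks do not measure expression, so the tissue label was not checked against marker genes. The height of a peak is the peak caller's signal value, a score without a stated unit that was used only to rank and describe peaks inside 1 list. Depth in reads is unknown here, and intervals below cover counting error over peaks only. With 1 group there is no contrast between conditions, and no test was made. Members are set beside all coding genes or all optimal peaks as a description.

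Growing neurites are built on microtubules. Tubb3 is a neuron-specific beta-tubulin. Stathmins (Stmn1 to Stmn4) bind tubulin dimers and promote microtubule turnover, Map2 and Mapt (tau) stabilise microtubules in dendrites and axons, and Dcx (doublecortin) does so in migrating young neurons. Gap43 is a membrane protein of the growth cone, and Nefl is the light chain of the neurofilaments that set the calibre of axons. CTCF is a zinc finger protein that halts the cohesin ring as it extrudes chromatin loops. Its binding site is directional, and loops tend to form between sites that point towards each other. Such sites can bring enhancers to a promoter or keep them away from it.

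The sites themselves are shown first, because the strand and quality of the core sequence are used in all that follows. A core is the best match to the CTCF core consensus of 14 bp, on either strand and at most 50 bp from a summit, with no more than 2 mismatches. Each line gives the strongest core-bearing peak of a gene at mm10 coordinates, from the RefSeq sequence of the same assembly (GRCm38). It is read on the strand of the core, with the core in capitals and 13 bases on each side in lower case. Peaks are numbered from left to right along the chromosome within each window. Stmn3 has no line since none of its peaks held a match.
Gap43 peak 2, chr16:42276625-42276664, plus strand: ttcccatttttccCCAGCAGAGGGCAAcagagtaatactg
Stmn1 peak 4, chr4:134478167-134478206, minus strand: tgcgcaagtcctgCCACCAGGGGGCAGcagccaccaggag
Stmn2 peak 5, chr3:8594876-8594915, plus strand: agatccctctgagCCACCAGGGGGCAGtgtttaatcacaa
Stmn4 peak 3, chr14:66378015-66378054, plus strand: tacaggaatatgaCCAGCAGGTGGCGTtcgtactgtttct
Tubb3 peak 1, chr8:123361505-123361544, minus strand: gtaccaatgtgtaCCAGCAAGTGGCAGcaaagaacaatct
Map2 peak 7, chr1:66407755-66407794, minus strand: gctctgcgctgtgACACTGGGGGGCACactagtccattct
Mapt peak 1, chr11:104196014-104196053, minus strand: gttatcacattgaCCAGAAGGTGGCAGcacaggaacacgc
Dcx peak 1, chrX:143819143-143819182, minus strand: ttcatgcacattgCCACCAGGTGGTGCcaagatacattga
Nefl peak 3, chr14:68067964-68068003, plus strand: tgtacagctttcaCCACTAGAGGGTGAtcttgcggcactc

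The core of Stmn1 peak 4 and that of Stmn2 peak 5 are the same 14 letters, with no mismatch to the consensus. The same core is found in 237 optimal peaks, 0.588% of the 40286 with a core on a definite strand, and ranks 7 by frequency. Among those 40286 peaks, each counted with its best match only, the core of Tubb3 peak 1 and that of Map2 peak 7 recur in no other peak. Besides the pair with identical letters, 5 more peaks had a perfect match. They are shown because their signals differed widely although each matches the consensus in full.
Gap43 peak 3, signal 35.7, chr16:42297643-42297682, plus strand: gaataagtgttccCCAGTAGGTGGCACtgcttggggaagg
Stmn1 peak 5, signal 340.4, chr4:134480952-134480991, minus strand: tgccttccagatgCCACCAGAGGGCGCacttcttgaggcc
Stmn4 peak 2, signal 312.9, chr14:66358832-66358871, plus strand: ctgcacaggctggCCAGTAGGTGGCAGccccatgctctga
Tubb3 peak 6, signal 231.2, chr8:123422607-123422646, minus strand: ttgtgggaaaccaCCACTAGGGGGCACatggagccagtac
Mapt peak 11, signal 133.1, chr11:104347120-104347159, plus strand: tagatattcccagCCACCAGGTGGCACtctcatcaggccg

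The 10 windows differed widely in how many sites they held. Mapt had 12 peaks, Nefl 10, Stmn1 9, Map2 8 and Tubb3 7, while Gap43, Stmn2 and Stmn4 had 5 each, Stmn3 4 and Dcx 2. The median of 6 peaks per window equals the median of 6 over all coding genes. Because gene lengths run from 5.23 kb (Nefl) to 267 kb (Map2), density is the fairer measure. It was highest at Nefl (9.50 peaks per 100 kb) and Stmn1 (8.53), and 89.3% and 84.9% of coding genes had a lower density. It was lowest at Dcx (1.13), with 19.5% of coding genes below it, and at Map2 (2.18), with 29.1% below it. Tubb3 (6.33) and Mapt (5.98) lay between, followed by Stmn4 (4.26), Stmn3 (3.70), Stmn2 (3.28) and Gap43 (2.60). The median density of the members was 3.98 peaks per 100 kb against 4.03 over all coding genes. The summed windows of 1637 kb held 4.09 peaks per 100 kb (exact Poisson 95% interval 3.17 to 5.20). The group value thus lay close to that of coding genes at large, with wide differences between its members.

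**Figure D1:**
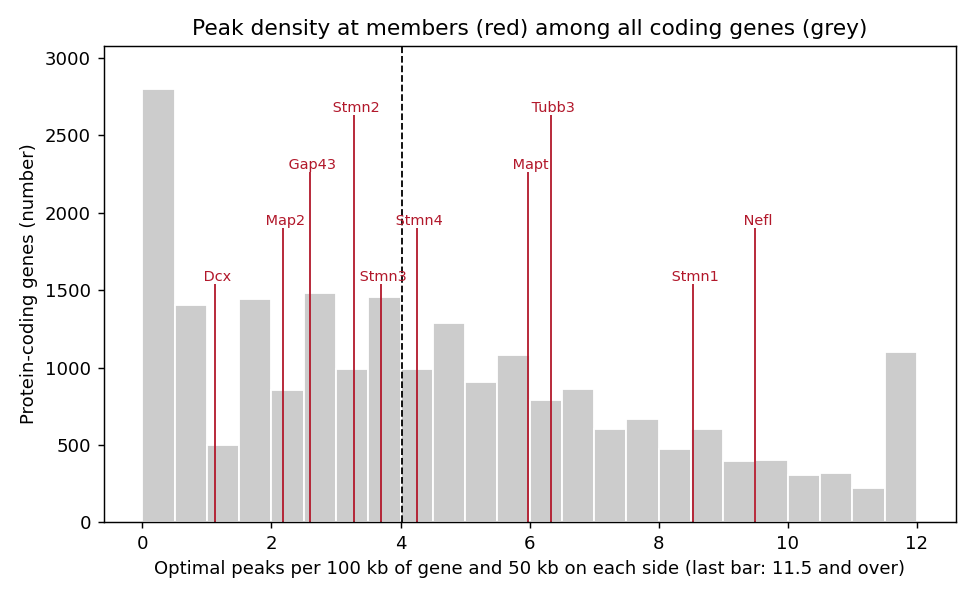
Number of protein-coding genes (vertical axis) by optimal CTCF peaks per 100 kb of gene and 50 kb on each side (horizontal axis), as grey bars, with the 10 genes as red lines (their heights only separate the names) and the median of all coding genes as a dashed line at 4.03. The members spread from 1.13 at Dcx to 9.50 at Nefl, on both sides of that median.

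Strong and weak peaks were both present. Member peaks had a median signal of 85.2 (quartiles 36.4 and 204), against 73.9 (36.8 and 191) over all optimal peaks. Peaks of the strongest 10% of the optimal set, at rank 6268 or better and a signal of at least 320.7, were found in the windows of 5 members, and 44.2% of coding genes have one in theirs. Those 5 genes were Stmn1, Mapt, Gap43, Tubb3 and Nefl, with 8 such peaks in all. Stmn4 and Tubb3 peaks just outside that limit had signals of 314.7 and 317.9.

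Ranks in the single-library lists were compared next. The IDR filter keeps peaks whose ranks are alike across lists, so closeness of ranks is largely built into the optimal set, for members and for all peaks. All 67 peaks overlapped a peak in each single-library list of 300000, and in 65 of them the 2 ranks differed by no more than 2 times (97.0%, against 95.5% of all optimal peaks). The median ratio of the larger to the smaller rank was 1.18, against 1.16 over all. Spearman's rho across the 67 peaks was 0.955, a description across peaks that share both libraries. One exception was Stmn1 peak 2, a weak peak at the promoter, which ranked 61262 in replicate 1 and 134335 in replicate 2. The other was Stmn1 peak 4, which stood near the top of both lists, at rank 18 in replicate 1 and rank 8 in replicate 2. Stmn1 peaks 7 and 8 overlap each other and correspond to a single peak in each library, so their ranks are not separate measurements. Both are counted among the 9 peaks of Stmn1.

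**Figure D2:**
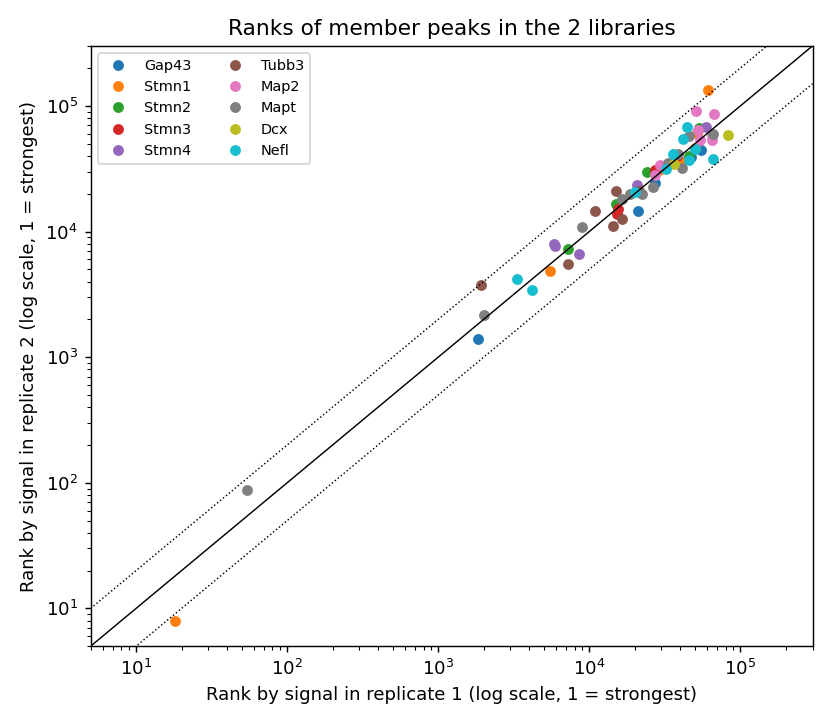
Rank of each member peak by signal in replicate 1 (horizontal axis) and replicate 2 (vertical axis), both on log scales with 1 as the strongest, coloured by gene; the solid line marks equal ranks and the dotted lines a difference of 2 times. Of the 67 peaks 65 lie between the dotted lines, and the peak at the lower left is Stmn1 peak 4.

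A promoter peak, a summit within 1 kb of an annotated start, was present at some of the genes and not at others. In all, 5 of the 10 genes (Gap43, Stmn1, Map2, Mapt and Nefl) had one, beside 39.8% of all coding genes. Stmn2, Stmn3, Stmn4, Tubb3 and Dcx had none. Promoter occupancy varies with CpG content. It was 58.1% among coding genes with an observed-to-expected CpG ratio over 0.6 in the window of 500 bp on each side of the 5′ end, and 24.2% among the others. Mapt (0.891), Nefl (0.805), Stmn1 (0.717) and Map2 (0.695) had such a ratio and a peak, and Tubb3 (0.601) had the ratio and no peak. Dcx (0.319), Stmn3 (0.354), Stmn4 (0.257) and Stmn2 (0.255) had neither. Gap43 (0.358) differed from these, and its peak lay at an internal start and not at the 5′ end.

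Mapt had the strongest promoter peak at a 5′ end among the 10 genes. Peak 4 (chr11:104231245-104231429) had its summit 52 bp before the annotated start of the gene, with a signal of 156.9, rank 18866 in the optimal set, 18496 in replicate 1 and 19781 in replicate 2. Its core has 1 mismatch and lies on the minus strand, pointing away from the gene. The promoter is shown from the left end of the peak to the last base before the annotated start, chr11:104231245-104231389, read on the minus strand, with the core in capitals. It is 80.0% G and C and holds 21 CG pairs in 145 bases, 2 of them inside the core.
Mapt promoter: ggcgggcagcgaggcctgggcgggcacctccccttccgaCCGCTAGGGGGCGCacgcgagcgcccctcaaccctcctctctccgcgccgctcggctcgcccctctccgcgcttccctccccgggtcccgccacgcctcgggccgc

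A second Mapt peak, peak 3, lay 732 bp before the start with a signal of 65.1 (ranks 33356 and 35332 in replicates 1 and 2) and a core of 2 mismatches on the plus strand, pointing into the gene. The cores of these neighbouring promoter peaks thus point towards each other. Farther out, peak 2 stood 1610 bp before the start with a signal of 25.1 and no core.

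The promoter peaks of Stmn1, Nefl and Map2 were weaker. At Stmn1, peak 2 (chr4:134467660-134467979) lay 500 bp before the start with a signal of 22.3 (rank 59156) and no core, and it is not in the conservative IDR set. At Nefl, peak 5 (chr14:68083634-68083953) lay 69 bp before the start with a signal of 39.3, ranks 41440 and 54874 in replicates 1 and 2, and no core. That position also falls in an annotated untranslated exon of Nefm, the medium neurofilament chain, whose gene model overlaps Nefl on the other strand. At Map2, peak 2 lay 728 bp from the start of a noncoding transcript and 962 bp from the nearest coding one, with a signal of 26.9. Map2 peak 5 lay 20 bp from an internal start of a retained-intron transcript, 146725 bp into the gene, and 124 bp from the nearest coding start. Its signal was 28.5, rank 50504 in replicate 1 and rank 91031 in replicate 2. Neither Map2 peak held a core, and peak 5 is not in the conservative set. All 4 signals lay below the median of the optimal set.

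Gap43 (chr16:42248442-42340651, minus strand) had its strongest peak far inside the gene. Peak 2 lay 64.0 kb into the gene (chr16:42276527-42276778), in an intron and 576 bp from the annotated start of a short noncoding transcript, Gap43-202. Its signal was 421.6, at rank 1623 in the optimal set, 1837 in replicate 1 and 1394 in replicate 2, and its core has 1 mismatch and points against the direction of the gene. Counting only the 5′ end of each gene leaves 3 members with a promoter peak (Stmn1, Mapt and Nefl) beside 31.8% of coding genes. The whole peak is shown in the plus direction as the strongest intragenic site of the 67 peaks, 252 bases with 48.0% G and C.
Gap43 peak 2: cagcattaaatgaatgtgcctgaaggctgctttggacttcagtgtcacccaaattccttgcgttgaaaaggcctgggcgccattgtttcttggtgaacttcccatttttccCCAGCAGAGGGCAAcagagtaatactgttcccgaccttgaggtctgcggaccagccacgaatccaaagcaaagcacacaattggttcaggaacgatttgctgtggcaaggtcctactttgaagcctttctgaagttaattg

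The larger pooled list of 251251 peaks, made from both libraries before the IDR step, held a summit within 1 kb of a start of all 10 genes, as it does for 69.0% of coding genes. At the 5 genes without an optimal peak there, the best of these had a signal of 14.6 at Stmn2 and 12.2 at Stmn3, and the weakest were Tubb3 and Dcx at 9.5 each. Over all member windows, the 196 pooled peaks outside the optimal set ran from 7.0 to 33.5 with a median of 9.6. The weakest optimal peak kept was Stmn1 peak 8 (7.3), which overlaps the stronger peak 7. The next weakest was Map2 peak 6 (21.6), so the ranges of both overlap.

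Among the stathmins, Stmn1 (chr4:134468320-134473843, plus strand) carried the strongest site of all 10 genes. Peak 4 (chr4:134478020-134478401) had a signal of 631.1, rank 8 of all optimal peaks, and lay 4369 bp past the end of the 5.52 kb gene. Peak 5 followed 7125 bp past the end with a signal of 340.4, rank 5485 in replicate 1 and rank 4864 in replicate 2. Both have perfect cores on the minus strand, and peak 3 inside the gene (signal 85.4, 1 mismatch) points the same way, so all 3 cores of the window run against the direction of the gene. No core-bearing peak lay within 50 kb upstream. The other downstream peaks included peaks 7 and 8 (24.4 and 7.3) at the promoter of Aunip, and none of them held a core. The stretch centred on the summit of peak 4, chr4:134478112-134478312, is shown on the strand of the core to give its surroundings.
Stmn1 peak 4: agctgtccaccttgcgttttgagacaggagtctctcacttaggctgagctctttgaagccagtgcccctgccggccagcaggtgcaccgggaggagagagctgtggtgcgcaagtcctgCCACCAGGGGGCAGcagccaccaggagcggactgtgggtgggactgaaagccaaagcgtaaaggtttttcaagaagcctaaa

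Stmn4 (chr14:66344296-66361680, plus strand) had cores in 1 direction throughout. All 5 of its peaks held a core, and all 5 cores lie on the plus strand, in the direction of the gene. Peak 5 holds another match within 2 mismatches, whose strand was not read. Peak 2 in an intron (312.9), peak 3 at 16358 bp past the end (314.7) and peak 4 at 29292 bp past the end (299.5) were close in signal, and their ranks ran from 5802 to 8581 in replicate 1 and from 6644 to 7973 in replicate 2. The order of these 3 peaks was not the same in the 2 libraries, since peak 4 ranked last in replicate 1 and first in replicate 2. Peak 1, 47628 bp upstream at the promoter of Trim35, was weaker (130.2), and peak 5 was the weakest (21.9).

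Stmn2 (chr3:8509360-8561606, plus strand), a stathmin of growth cones, had its strongest site far downstream. Peak 5 (chr3:8594767-8595008) lay 33277 bp past the end with a signal of 303.6 and nearly equal ranks of 7279 and 7220. Inside the gene, peak 2 stood in an intron 4270 bp from the nearest start with a signal of 191.0 (ranks 15088 and 16414), with its core in the direction of the gene. The nearest core-bearing peak past the gene, peak 3 at 5482 bp (101.1), points back towards it, and so does peak 4 (43.5). Upstream there was only peak 1 at 19942 bp (27.9), with matches on both strands equally good, so no direction was given.

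Stmn3 (chr2:181306459-181314500, minus strand) was the 1 member without a core at any peak. Its strongest peak, peak 2 (chr2:181307201-181307422), lay in a coding exon 7198 bp from the start, with a signal of 204.1 and ranks of 15146 and 13759. Peaks 1 and 3 lay at the promoters of its neighbours Gmeb2 (85.2) and Rtel1, a DNA helicase gene (50.5). Peak 4, in an intron of Rtel1, had a signal of 195.3 and ranks of 15394 and 15230. With 3 mismatches allowed, peaks 1, 2 and 4 had a match.

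Tubb3 (chr8:123411424-123422015, plus strand) had no promoter peak of its own, but sites close on both sides. Its 7 peaks had signals from 133.5 to 392.3, the highest minimum of the 10 windows. The strongest, peak 1 (chr8:123361386-123361670), lay 49903 bp upstream in an intron of Spire2, an actin nucleator gene, just inside the 50 kb limit. It ranked 1912 in replicate 1 and 3762 in replicate 2. The gene was bracketed by peak 4, 4434 bp upstream at the promoter of Mc1r (317.9, ranks 7224 and 5561), and peak 6, 627 bp past its end and near a start of Def8 (231.2, ranks 10961 and 14529). These sites are 15.7 kb apart, and the cores of both point against the direction of the gene. The same holds for the other core-bearing peaks, peaks 1 and 7, so all 4 face the same way. Inside Tubb3 there was only peak 5, in an intron (133.5, no core).

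Of the microtubule-associated genes, Mapt (chr11:104231390-104332090, plus strand) had more and stronger sites than Map2. Mapt peak 1 (chr11:104195818-104196175) lay in intergenic sequence 35387 bp upstream with a signal of 567.6, rank 63 of the optimal set, 54 in replicate 1 and 88 in replicate 2. Inside the gene, peak 9 (410.5, ranks 2011 and 2154) lay in an intron 84.5 kb from the start, and peak 7 (263.9, ranks 8917 and 10909) in a coding exon without a core. The cores changed direction along the gene. Of the 4 core-bearing peaks up to 47.0 kb into the gene, 3 are on the minus strand, and all 5 from 80.4 kb onwards are on the plus strand, the last 2 (133.1 and 39.1) in introns of Kansl1. The nearest cores outside Mapt, at peak 4 and at peak 11, point away from each other and lie 116 kb apart.

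The Map2 window was the longest of the 10 (the gene is at chr1:66175273-66442583, plus strand), at 367.3 kb, and none of its peaks exceeded a signal of 92.8. That value belongs to peak 3 (chr1:66177516-66177835), in an intron 2126 bp from the nearest start, with ranks of 27100 and 28053 and no core. The other 7 peaks had signals from 21.6 to 75.5, and 7 of the 8 lay inside the gene. The 3 core-bearing peaks, peaks 4, 7 and 8, all point against the direction of the gene. No core-bearing peak lay outside the gene on either side within 50 kb.

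Dcx (chrX:143855842-143933311, minus strand) had 2 weak peaks. Peak 1 (chrX:143819010-143819329), 36672 bp past the end of the gene in an exon of a Capn6 transcript, had a signal of 62.0, ranks of 36162 and 34488, and a core with 1 mismatch. Peak 2, in an intron of Dcx, had a signal of 22.6, ranks of 82906 and 58795 and no core, and it is not in the conservative set. Within the window, the nearest optimal summit to any start of Dcx was 51143 bp away. Over 948 coding genes on X the median was 2 peaks per window and 1.22 per 100 kb, so the count at Dcx equals the median of its chromosome.

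Nefl (chr14:68083863-68089095, plus strand) shares its neighbourhood with Nefm. The strongest peaks lay upstream of Nefl. Peak 2 (chr14:68051608-68051861), at the start of the noncoding gene Gm31107, had a signal of 369.3, ranks of 3319 and 4171 and no core, which makes it the strongest coreless peak of the 67. Peak 3, 15881 bp upstream, had a signal of 361.8, ranks of 4188 and 3415 and a core pointing towards Nefl. On the other side, peaks 7, 8 and 9 (53.5, 72.6 and 44.3) stand near the Nefm start, and peak 9 is 69 bp from it. Only peak 8 of these holds a core, which points in the same direction as that of peak 3. Peak 10 (143.7, ranks 20157 and 20446), 45746 bp past the end of Nefl, carries the first core that points back.

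**Figure D3:**
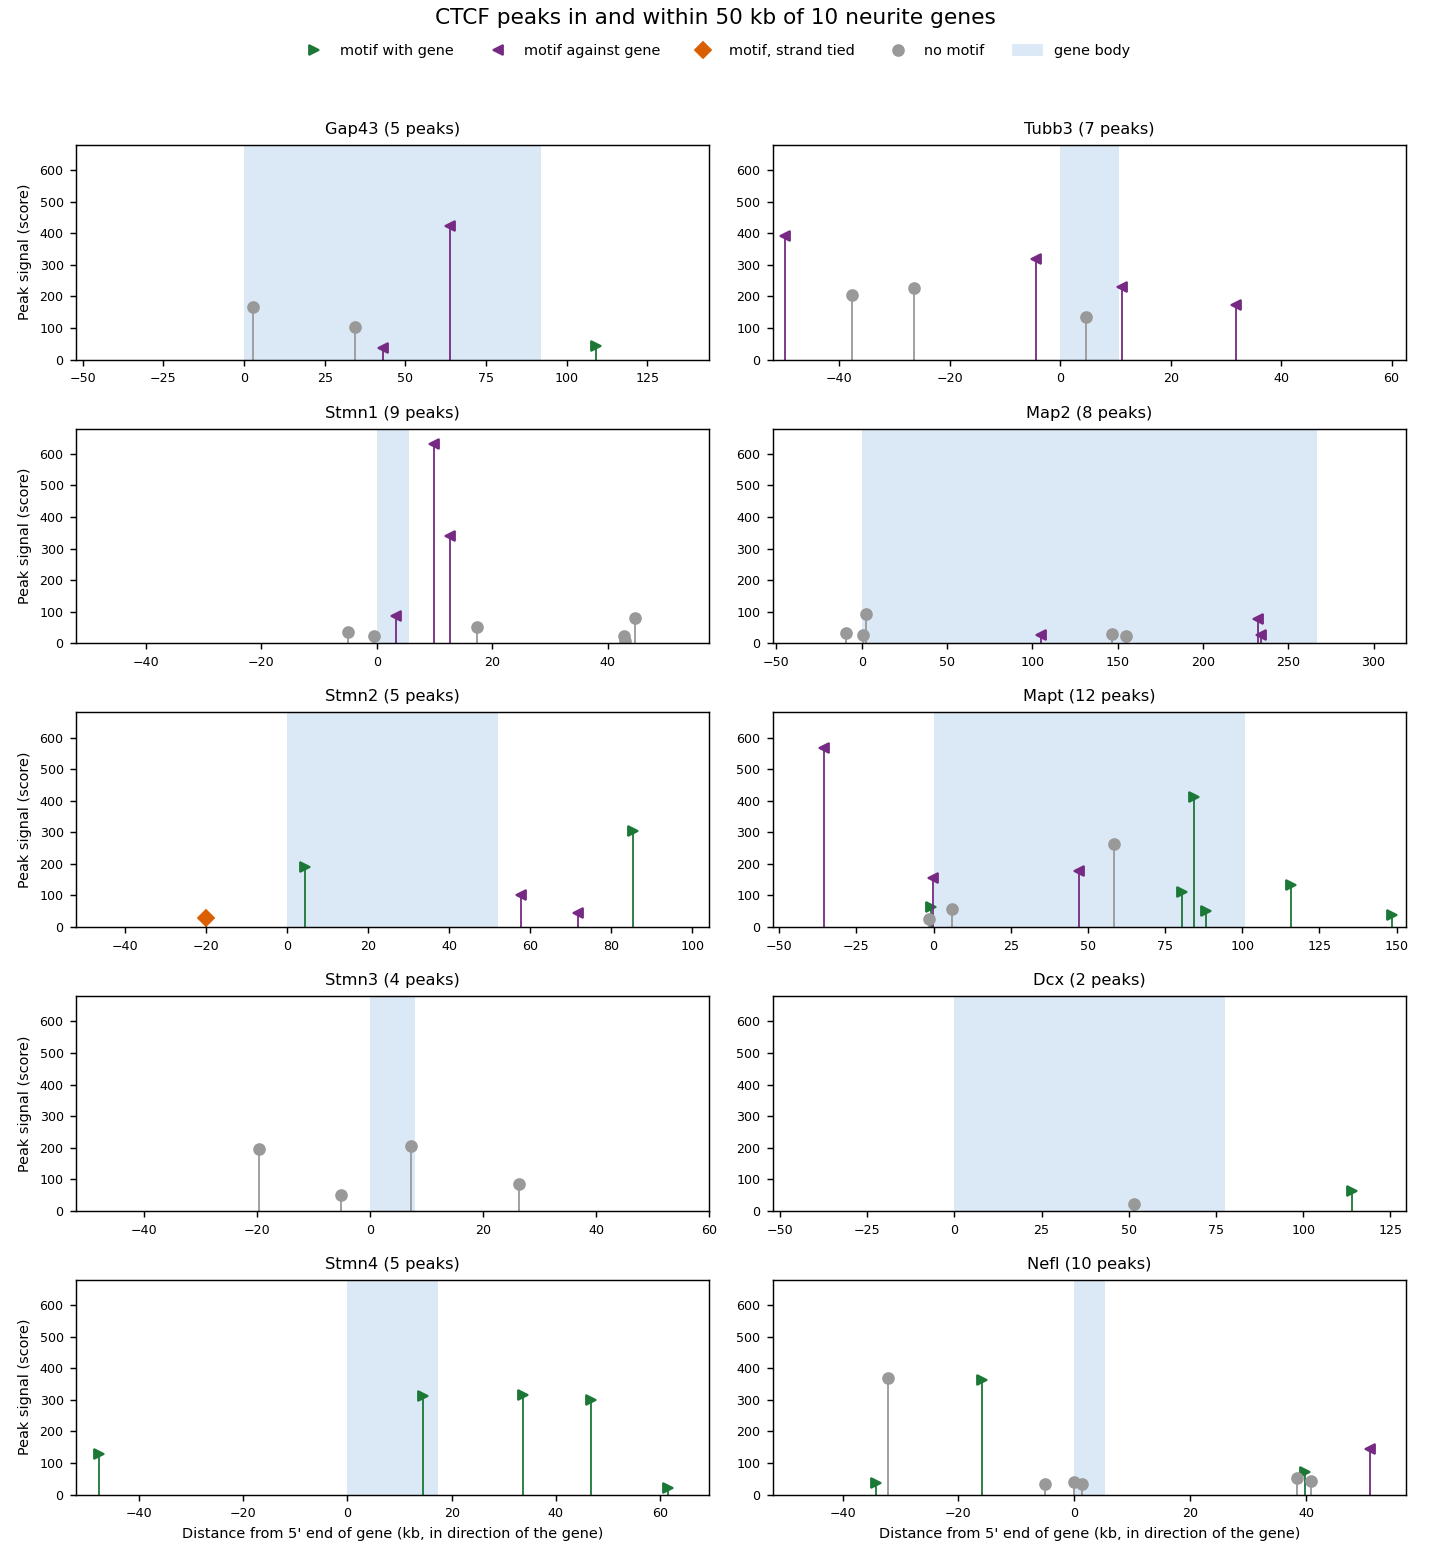
Signal of each optimal CTCF peak (vertical axis, score) against its distance from the 5′ end of the gene in kb, in the direction of the gene (horizontal axis), with 1 panel per gene and the gene body shaded; triangles point with or against the gene by the strand of the core, the diamond marks a tied strand and circles mark peaks without a core. Stmn4 cores all point with the gene, those of Stmn1, Tubb3 and Map2 all point against it, and Mapt cores change direction along the gene.

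By place, 20 peaks were upstream of their gene, 24 inside it and 23 downstream. Of the upstream peaks 9 held a core, of the inside peaks 12 and of the downstream peaks 16. Counting promoters of any annotated gene first, 19 summits lay within 1 kb of a start site, but only 7 of these belonged to the member itself and 12 to a neighbour or an overlapping noncoding gene. Stmn1 peak 2, counted for the member, also lay within 1 kb of a start of Gm23634. Of the remaining summits 4 lay in exons, 26 in introns and 18 in intergenic sequence. Over all 36 cores with a strand, 18 pointed with their gene and 18 against it. None of these splits was counted over all optimal peaks, so they only describe the members.

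A core was found at 37 of the 67 summits (55.2%, Wilson 95% interval 43.4 to 66.5), and at 65.4% of all optimal peaks, a value inside that interval. Windows of the same length 1 kb to the left and to the right of the member summits held a match in 4 (5.97%) and 1 (1.49%) cases. The median signal was 133 for member peaks with a core and 51.8 for the rest, with 110 and 43.8 over all optimal peaks. The 7 peaks with a perfect core had a median of 304, the 16 with 1 mismatch 165 and the 14 with 2 mismatches 70.3. In the whole optimal set these medians were 257, 134 and 70.8, so the member peaks followed the order of the full set. The spread inside each class was wide, from 35.7 at Gap43 peak 3 to 631.1 at Stmn1 peak 4 among perfect cores.

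**Figure D4:**
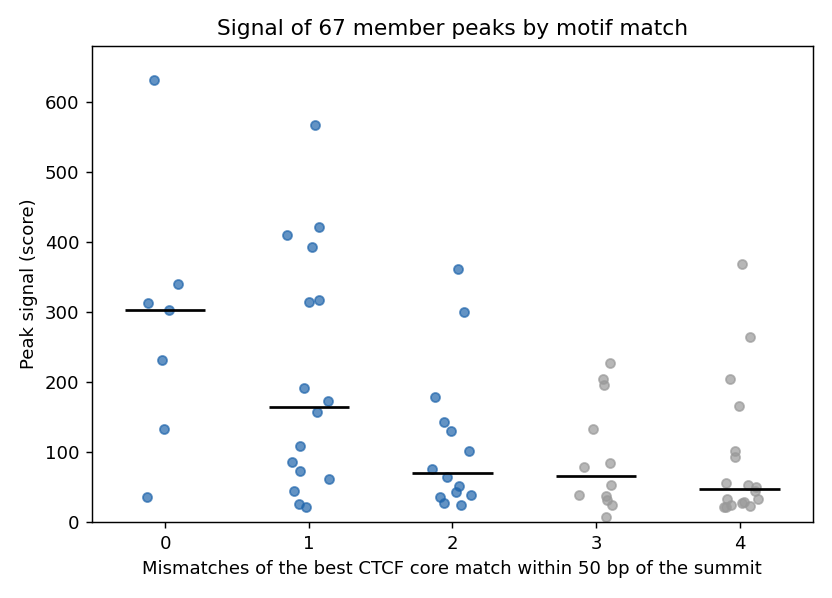
Signal of the 67 member peaks (vertical axis, score) by the number of mismatches in the best core match within 50 bp of the summit (horizontal axis); points are peaks, bars are medians, blue marks a core within 2 mismatches and grey marks none. Medians fall from 304 with a perfect core to 70.3 with 2 mismatches and 47.4 with 4.

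In 4 peaks the core lay wholly in sequence marked as repeat in the reference assembly, 11.1% of the 36 stranded cores, against 21.2% over all optimal peaks with a core. The 21.2% includes tied cores, while the tied core of Stmn2 peak 1, whose summit lies in repeat-marked sequence, is not among the 36. Rodent genomes carry many copies of short interspersed repeats of the B2 family, which are known to hold CTCF cores. The reference used here marks repeats by lower case and does not name the family. These sequences are shown because the first of them carries the commonest core of the optimal set, present in 2172 peaks (5.39% of those with a core on a definite strand), and the second the core that ranks 3 by frequency (681 peaks).
Map2 peak 8, signal 25.3, chr1:66409271-66409310, minus strand: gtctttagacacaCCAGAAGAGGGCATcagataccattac
Gap43 peak 1, signal 44.0, chr16:42231490-42231529, minus strand: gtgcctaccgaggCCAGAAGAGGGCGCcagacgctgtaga
Stmn1 peak 3, signal 85.4, chr4:134471679-134471718, minus strand: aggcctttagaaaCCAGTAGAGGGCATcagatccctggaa
Mapt peak 12, signal 39.1, chr11:104379799-104379838, plus strand: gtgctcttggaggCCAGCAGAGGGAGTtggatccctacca

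The 4 peaks with a repeat-marked core had a median signal of 41.5, and member peaks with a stranded core elsewhere 165. Over all optimal peaks with a core the medians were 52.4 and 141. At Gap43, peak 1 is the nearest core-bearing site past the gene, 16921 bp from its end, with ranks of 47359 and 39458, and its core points away from the gene.

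The direction of the nearest cores on both sides of each gene was then compared, since loops tend to form between cores that face each other. With cores of tied strand left out, none of the 10 genes lay between convergent cores within 50 kb, a position held by 13.2% of coding genes. Stmn4, Tubb3 and Nefl had cores in the same direction on both sides (24.3% of coding genes), and Mapt had divergent ones (13.1%). Gap43, Stmn1 and Dcx had a core on only one side (30.2% of coding genes), and Stmn3 and Map2 on neither (19.2%). These shares also leave out tied cores, and by that count Stmn2 is one-sided as well. Stmn2 had cores on both sides, but the upstream one, at peak 1, matches equally well on both strands. Read as pointing at the gene, it puts Stmn2 between convergent cores, which makes 1 of 10 beside 13.9% of coding genes. With windows of 100 kb Stmn1 lay between convergent cores, beside 19.1% of coding genes. With 3 mismatches Stmn1 and Stmn3 did (15.5% of coding genes), and with the stronger 50% of the optimal set Nefl did (9.51%). The count of 0 thus depends on these settings and on how ties are read.

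To place the 10 genes among others of the neuronal cytoskeleton, promoter occupancy was counted for 42 related genes in 7 groups by role, a list also drawn up with earlier results known. A start-site peak was found at 29 of them (69.0%, beside 39.8% of coding genes). Of the 42 genes 32 had a CpG ratio over 0.6 at the 5′ end, and 19 of these had a peak, beside 58.1% of coding genes of that kind. The other 10 all had one, beside 24.2% of the other coding genes. The ratio was taken at the 5′ end, while a peak at any annotated start was counted. With 5′ ends only, 21 of the 42 had a peak, beside 31.8% of coding genes. The split by CpG ratio was not repeated that way. All 6 tubulins had a peak at an annotated start, led by Tubb5 (277.5), followed by Tuba1a (84.3), Tubb2a (65.5) and Tubb4a (61.5). Tubb3 itself had no optimal peak at its start. Intermediate filament genes had a peak in 6 of 7, with Gfap, the astrocyte filament, strongest (510.3), then Nes (189.6), Prph (185.6) and Vim (86.8). Ina had none, and Nefm had peak 9 of the Nefl window (44.3).

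Microtubule-associated and plus-end protein genes had a peak in 6 of 8, led by Map7 (435.4), Mapre2 (101.6), Map1a (80.9) and Mapre3 (46.5), and not in Map1b or Mapre1. The doublecortin relatives Dclk1 (266.1), Dclk3 (44.5) and Dclk2 (19.3) all had one, and Dcx had none. Growth cone genes had one in 4 of 9, namely Dpysl3 (378.0), Marcksl1 (193.5), Crmp1 (77.3) and Dpysl5 (68.3), and Basp1, Dpysl2 and Dpysl4 were among those without. Of the actin regulators 3 of 5 had one, Pfn2 (58.8), Dbn1 (40.5) and Enah, and Cfl1 and Pfn1 did not. Among the severing enzymes Fign (54.6) had one, and Katna1 and Spast did not.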

How the data were processed

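The authors deposited 5 peak lists in narrowPeak layout on mm10, per the deposited file records. There is 1 list of 300000 peaks per library, each called against a control alignment, a pooled list of 251251, and the conservative (59979) and optimal (62686) IDR sets derived from these. No source used here names the peak caller, aligner, IDR threshold or read depth. The authors' signal value is a score with no stated unit. The summit is the peak start plus the deposited offset.

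Here, summits were assigned to genes of GENCODE vM21, and 62677 optimal peaks on assembled chromosomes were searched for the core in the RefSeq GRCm38 sequence, which carries the same chromosomes as mm10. A peak was looked up in each library's list by an overlap of at least 1 bp, taking the strongest. A read-through gene model around Tubb3 (Gm20388) was not used to name places. Scripts ran in Python 3.11.15 with pandas 2.3.3, scipy 1.17.1 and pysam 0.24.0, and the core search, window counts and orientation calls were tested on simulated data. The 2 libraries form 1 group, so no test between groups was possible. The members and lists were chosen with earlier results of these data known. Named peaks are those at member starts, the strongest per window and the nearest with a core on each side. Per role, up to 4 related genes with the strongest and up to 3 without a promoter peak are named. One related gene that this rule would name is not reported here. Alternatives covered the peak set, each library alone, window and promoter size, merging of close summits and core mismatches.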

Additional observations from a re-analysis of the deposited data

How the results depend on the processing

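The conservative set, merged summits, windows of 20 kb, promoters of 500 bp or 2.5 kb and core searches within 25 or 100 bp changed no count by over 1.5 times and left the density, core share and median signal inside their intervals. The stronger 50% of the optimal set holds fewer peaks by construction. It left 36 member peaks at 2.20 per 100 kb, against a median of 1.96 over coding genes. Their median signal was 200, against 191 over all peaks of that set. Cores were found at 66.7% of them, beside 80.1% of all peaks of that set. Promoter peaks remained at 2 members (Gap43 and Mapt) and 13 of the 42 related genes, beside 20.2% of coding genes. Between convergent cores lay 1 member (Nefl), beside 9.51% of coding genes. Windows of 100 kb gave 120 peaks and 1 convergent gene, beside 19.1% of coding genes. Counting 5′ ends only left 3 members with a promoter peak, beside 31.8% of coding genes. The core share was 34.3% with at most 1 mismatch (34.7% of all optimal peaks) and 73.1% with 3 (86.3%). With 3 mismatches 2 genes were convergent, beside 15.5% of coding genes. Reading tied strands as pointing at the gene, a choice made after seeing the data, gave 1 convergent gene (Stmn2), beside 13.9% of coding genes. With the 62686 strongest peaks of 1 library alone, member peaks numbered 65 to 71, density was 3.97 to 4.34 per 100 kb, promoter members 4 to 5, the core share 53.5% to 56.9%, convergent genes 0 and related genes with a peak 26 to 29. The median signal was then 30.5 to 55.3, on the scales of the single-library lists, with 29.8 and 44.2 over all peaks used. No paired analysis was possible because the labels give a single group. The unknown read depth limits how far the lack of a peak can be read: a start without an optimal peak is one where none passed the authors' filter.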

Other observations

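In 4 of the 8 member windows with at least 3 stranded cores, all cores lay on 1 strand (Stmn1, Stmn4, Tubb3 and Map2). This count was made after the strands had been seen, and it takes only the best match of each peak. Stmn4 peak 5 and Map2 peak 7 hold another match within 2 mismatches, whose strand was not read. Among 13825 coding genes with at least 3 stranded cores, 8.98% had all of them on 1 strand, and among those with 3 to 9 cores, the range of the members, 9.91%. Of these members Mapt had 9 stranded cores and the rest at most 5, and no share was counted for 3 to 5 cores alone. With at most 1 mismatch it was 3 of 5 members (Stmn1, Stmn4 and Tubb3). Beside them stood 14.5% of 7950 genes, or 17.4% of those with 3 to 5 cores. With at most 3 mismatches it was 1 of 9 (Stmn4), beside 7.06% of 15573 genes, or 8.64% of those with 3 to 9 cores. Windows of neighbouring genes share peaks, so these genes are not independent of each other, and the difference was not tested.

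At Mapt, peaks 4 and 6 carry cores with 2 CG pairs each, and none of the other member cores with a strand has more than 1. Peak 4 is at the promoter (156.9, core found in 20 optimal peaks), and peak 6 is in an intron 47.0 kb into the gene (178.4, core found in 10). Of the 36 stranded cores 10 hold a CG pair (27.8%), against 32.5% over all optimal peaks with a core.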
